A study of Mus musculus with 18 samples.

Results

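The 9 genes described here are 6 ligands of the epidermal growth factor (EGF) family, namely BTC, AREG, EREG, HBEGF, TGFA and NRG1, and 3 receptors of the ERBB family, namely EGFR, ERBB2 and ERBB3. They were chosen by name, and every probe of the array that carries one of these names was taken, which gave 16 probes for 9 of the 30854 gene names on the array. RNA was measured on Illumina MouseWG-6 v2.0 bead arrays in 18 cultures, 3 in each of 6 groups, collected on day 3. Murine embryonic stem (ES) cells were grown on a layer of the bone marrow stromal line PA6 (ES/PA6 co-cultures), or PA6 cells were grown without ES cells (PA6 mono-cultures). Both culture types were kept in serum-free medium without growth factor (-GFs), with recombinant FGF2 at 20 ng/ml or with recombinant BMP4 at 10 ng/ml. The doses are those of the labels, and the written methods of the study state less BMP4. The ES cells were a single knock-in line that carries EGFP under the τ promoter, and they had been kept on mouse embryonic fibroblasts before the co-culture. Each co-culture array therefore holds the RNA of ES cells, of their progeny and of PA6 cells together. A number from 1 to 3 marks the biological replicate, which by the labels held 1 well of each culture.

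EGF family ligands are made as membrane-anchored precursors and are released when metalloproteases of the ADAM family cut them from the cell surface. BTC (betacellulin) and HBEGF (heparin-binding EGF-like growth factor) bind both EGFR and ERBB4, AREG (amphiregulin) and TGFA (transforming growth factor alpha) bind EGFR, EREG (epiregulin) binds EGFR and ERBB4, and NRG1 (neuregulin) binds ERBB3 and ERBB4. The receptors are tyrosine kinases that act in pairs: ERBB2 has no known ligand and serves as the partner of the others, and ERBB3 has a weak kinase and recruits phosphatidylinositol 3-kinase. Signals from these receptors run through the RAS and ERK cascade, which FGF receptors use as well.

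In the RefSeq gene table of mouse assembly GRCm38.p6, the protein-coding genes Epgn, Ereg, Areg and Btc follow each other on 1 chromosome, with Btc last. The promoter table of that build held 5 of the 9 genes, namely Btc, Areg, Tgfa, Egfr and Erbb2. The 250 bases before the annotated start are shown for Btc, the ligand gene called with FGF2 in both culture types, and for its neighbour Areg, which was detected on no array. Capitals mark matches, on either strand, to the TATA box TATAAA, the cyclic AMP response element TGACGTCA, the AP-1 site TGACTCA, the SP1 box GGGCGG and the ETS core CCGGAA. The Btc stretch is chr5:91402995-91403244 on the minus strand and the Areg stretch is chr5:91139349-91139598 on the plus strand, both written 5′ to 3′ on the gene's own strand.
Btc: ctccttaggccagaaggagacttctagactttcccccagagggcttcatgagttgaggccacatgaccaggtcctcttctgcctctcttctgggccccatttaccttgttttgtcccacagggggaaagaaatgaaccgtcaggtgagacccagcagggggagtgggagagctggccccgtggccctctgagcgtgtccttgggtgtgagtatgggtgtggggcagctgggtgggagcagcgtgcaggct
Areg: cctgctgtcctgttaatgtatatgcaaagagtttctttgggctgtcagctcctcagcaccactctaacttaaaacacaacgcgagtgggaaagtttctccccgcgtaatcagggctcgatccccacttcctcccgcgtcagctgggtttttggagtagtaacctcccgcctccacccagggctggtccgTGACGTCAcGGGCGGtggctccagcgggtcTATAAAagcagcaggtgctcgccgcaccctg
The Areg stretch held the cyclic AMP response element, the SP1 box and the TATA box, which began 61, 52 and 31 bases before the start and did not overlap. The Btc stretch held none of the 5 motifs. Over the same 250 bases of all 32851 promoters in the table, 12.4% held TATAAA, 1.55% TGACGTCA, 4.46% TGACTCA, 32.7% GGGCGG and 12% CCGGAA. The Btc and Areg stretches had 59.6% and 57.2% of G or C, and 4 and 15 CG pairs.

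Of the 9 genes, 5 had a probe that passed the filter on low signals, a detection p under 0.05 on at least 3 arrays. They were BTC, HBEGF, NRG1, EGFR and ERBB2, through 8 of the 16 probes. The other 4 genes were not above background on enough arrays to be tested. AREG (ILMN_1238547), with deposited intensities from 84.7 to 159.3, and both probes of EREG were detected on none of the 18 arrays. TGFA (ILMN_2765162) was also detected on none, with 0.0502 as its lowest detection p. ERBB3 (ILMN_1250597) was detected on 1 array, PA6 -GFs replicate 2, at a detection p of 0.0481. No fold change is given for these genes in any comparison, and a level below the background of the array is not an absence of the transcript. The plot of all probes shows that the signals of these 4 genes lay in the same low range in all 6 groups.

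**Figure D1:**
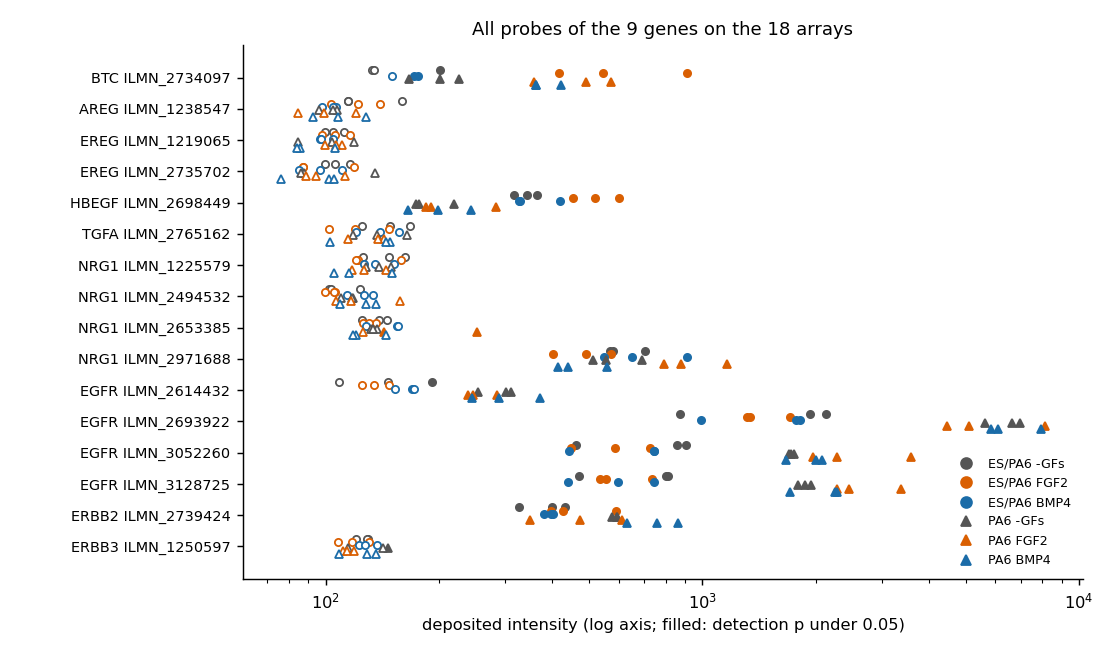
Deposited intensity (log axis) of all 16 probes of the 9 genes, 1 point per array in each of the 6 groups, with circles for ES/PA6 co-cultures, triangles for PA6 mono-cultures and filled points for a detection p under 0.05. AREG, EREG and TGFA have open points only, ERBB3 has 1 filled point, and 8 probes of BTC, HBEGF, NRG1, EGFR and ERBB2 passed the filter.

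Between 17125 and 20412 of the 45281 probes were detected per array, arrays of 1 group correlated at 0.981 to 0.992 over genes, and no pair of arrays was identical. All 10 genes listed as markers of pluripotent cells were called higher in the co-cultures in -GFs medium, and 6 or 7 of them were detected on none of the arrays of each PA6 group. POU5F1 was detected on all 3 arrays of each PA6 group. Its mean log2 intensities there were 6.86, 6.95 and 7.18, against 13.19 in the co-cultures in -GFs medium. Of 13 stromal markers, 8 were called lower in the co-cultures. In that comparison 39% of all genes were called. The log2 of the summed intensities of the 13 lay between 16.36 and 17.00 in the co-culture groups. It lay between 17.61 and 17.96 in the mono-culture groups. The brightest genes weigh most in such a sum. The levels below are log2 intensities after neqc normalization. A gene was called where the adjusted p was under 0.1 and the log2 fold change was above 1 or below -1.

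BTC was the only one of the 5 tested genes called with FGF2, and it was called in both culture types. In the co-cultures 1 of the 5 was called for FGF2 against -GFs, where 3.34% of all 16446 genes tested were called. BTC (ILMN_2734097) was 6.27, 5.51 and 5.50 on the 3 -GFs arrays and 9.44, 8.79 and 8.19 on the FGF2 arrays, so that the lowest FGF2 array lay well above the highest -GFs array. The group means were 5.76 ± 0.439 and 8.81 ± 0.623 (SD, n = 3). FGF2 thus raised the transcript 8.25-fold, by 3.04 ± 0.290 (SE) on the log2 scale (adjusted p 8.96e-06). Only 1 of the 3 -GFs arrays detected the probe, so the -GFs level is close to the background and the size of the change depends on how the background is treated: it was 1.91 to 3.35 on the log2 scale over 19 alternatives, and the gene was called in each of them. In a co-culture, fewer cells of a type and less RNA per cell cannot be told apart.

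The same transcript was higher with FGF2 when PA6 cells were grown alone. The PA6 -GFs arrays gave 6.33, 7.17 and 7.20, and the FGF2 arrays 8.74, 8.99 and 8.41, with no overlap. The means were 6.90 ± 0.495 and 8.71 ± 0.291 (SD, n = 3), and the log2 fold change was 1.82 ± 0.290 (SE), or 3.52-fold (adjusted p 0.00041). It was 1 of the 5 genes called in this comparison, in which 5.27% of all genes were called, and it held in all 19 alternatives.

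With BMP4, BTC was called in the mono-cultures and not in the co-cultures, and the difference between the culture types was not called. In the co-cultures the BMP4 arrays were 5.96, 5.98 and 5.93, inside the range of the -GFs arrays, and the log2 fold change was 0.20 ± 0.290 (SE; adjusted p 0.917). None of the 5 genes was called there by limma, none had an unadjusted p under 0.05, and 0.76% of all genes were called. In the mono-cultures the BMP4 arrays were 8.21, 8.11 and 8.18, above all 3 -GFs arrays. The log2 fold change was 1.27 ± 0.290 (SE), or 2.41-fold (adjusted p 0.0278), and BTC was the 1 gene of the 5 called, against 1.41% of all genes. This call met neither threshold without PA6 -GFs replicate 1, at 0.99 (adjusted p 0.139, where the 19 alternatives gave 0.0082 to 0.139), and fell short of the fold threshold without background correction, at 0.82.

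With the growth factors set against each other, BTC was 2.85 ± 0.290 (SE) higher on the log2 scale with FGF2 than with BMP4 in the co-cultures (adjusted p 3.81e-05), the 1 call among the 5 genes, against 2.85% of all genes. It was 1.80 to 3.15 over 19 alternatives, and the probe was detected on 2 of the 3 BMP4 arrays. In the mono-cultures the difference was 0.54 ± 0.290 (SE; adjusted p 0.252), with a 95% confidence interval from -0.07 to 1.16. The test of the difference between the culture types gave 1.23 ± 0.410 (SE) for FGF2 (adjusted p 0.0708), and 2 of the 5 genes were called in that test, BTC and NRG1, against 7.39% of all genes. For BTC this call held in only 10 of 24 alternatives. For BMP4 the difference was -1.07 ± 0.410 (SE; adjusted p 0.363). None of the 5 genes was called by limma in that test, 1 had an unadjusted p under 0.05, and 0.559% of all genes were called.

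**Figure D2:**
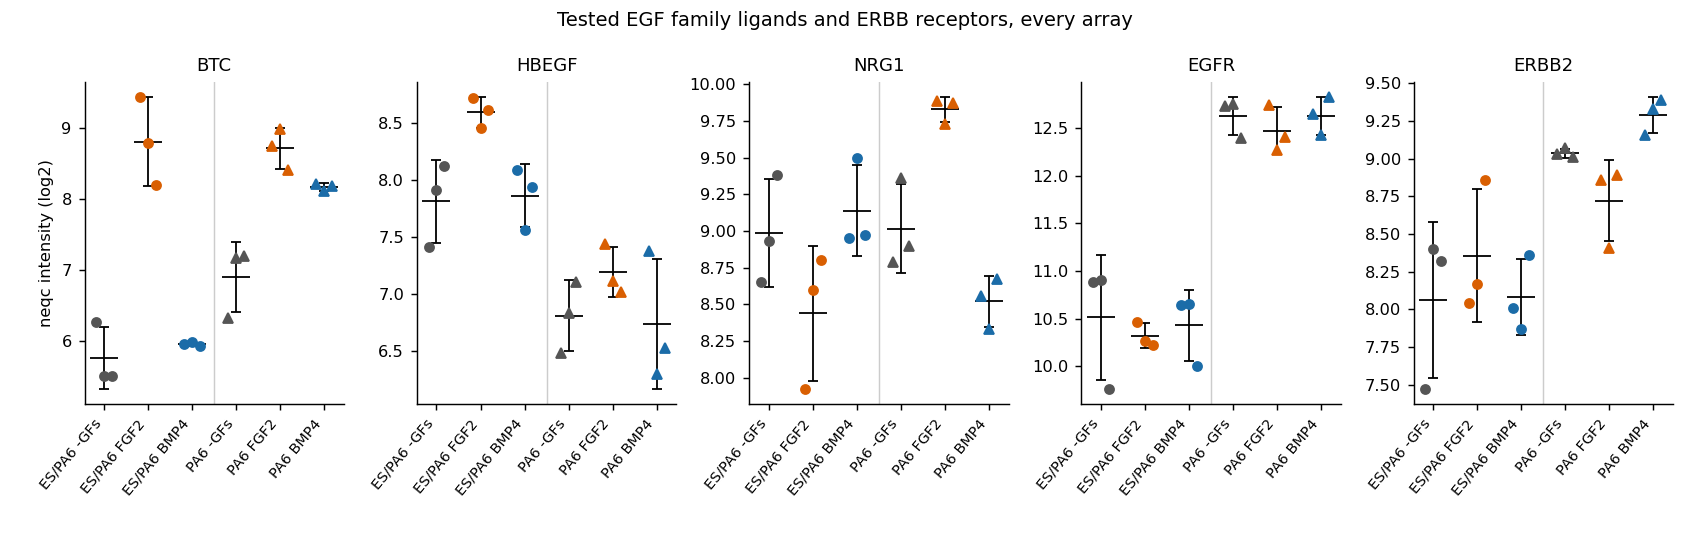
Log2 intensity after neqc normalization of the 5 tested genes on every array, with 3 points per group, a bar for the mean and whiskers for the SD (each panel has its own axis, which does not start at 0). BTC is high with FGF2 in both culture types and with BMP4 only in the PA6 panel, and all PA6 points of EGFR lie above all co-culture points.

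HBEGF, a heparin-bound ligand, met the threshold on the adjusted p in the co-cultures with FGF2 but stayed under that on the fold change. The probe (ILMN_2698449) was detected on all 18 arrays. It gave 7.41, 7.91 and 8.12 in -GFs and 8.72, 8.45 and 8.61 with FGF2, which did not overlap. The log2 fold change was 0.78 ± 0.256 (SE), or 1.72-fold (adjusted p 0.0905). That adjusted p of limma ran from 0.0287 to 0.278 over 19 alternatives, none of which called HBEGF. With BMP4 it gave 8.09, 7.56 and 7.94, spread over the range of the -GFs arrays (0.05 ± 0.256, SE; adjusted p 0.982).

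In PA6 mono-cultures HBEGF was 6.49, 6.84 and 7.11 in -GFs, 7.44, 7.12 and 7.02 with FGF2 and 7.38, 6.30 and 6.53 with BMP4. Neither growth factor separated its arrays from -GFs. The log2 fold changes were 0.38 ± 0.256 (SE; adjusted p 0.394) and -0.08 ± 0.256 (adjusted p 0.975). The test of the difference between culture types gave 0.40 ± 0.362 (SE; adjusted p 0.568) for FGF2, so a different response in the culture types was not shown.

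NRG1, a ligand of ERBB3 and ERBB4, differed between the culture types in its response to FGF2, and that difference was called although neither response was. Of its 4 probes only ILMN_2971688 passed the filter, on all 18 arrays. In the mono-cultures it gave 8.79, 9.36 and 8.90 in -GFs and 9.89, 9.73 and 9.87 with FGF2, without overlap. The log2 fold change was 0.81 ± 0.235 (SE; adjusted p 0.0286), below the fold threshold. In the co-cultures it gave 8.65, 8.93 and 9.38 in -GFs and 7.92, 8.60 and 8.80 with FGF2. These groups overlap, and the log2 fold change was -0.55 ± 0.235 (SE; adjusted p 0.222). The difference between the culture types was -1.36 ± 0.332 (SE; adjusted p 0.016), from -1.54 to -1.10 over 24 alternatives, all of which called it.

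BMP4 left NRG1 below every threshold against -GFs. The mono-culture arrays with BMP4 gave 8.56, 8.33 and 8.67, all under the -GFs arrays (-0.49 ± 0.235, SE; adjusted p 0.403). The co-culture arrays gave 8.95, 9.50 and 8.97 (0.15 ± 0.235, SE; adjusted p 0.92). FGF2 against BMP4 in the mono-cultures was the 1 comparison of treatments in which NRG1 was called, at 1.31 ± 0.235 (SE) on the log2 scale, or 2.47-fold (adjusted p 0.00102). It was the 1 gene called of the 5, where 5.82% of all genes were called. The other 3 NRG1 probes gave no test. One of them (ILMN_2653385) was detected on 2 arrays, PA6 FGF2 replicates 1 and 2, and the remaining ones on none.

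EGFR, the receptor that binds most of these ligands, was not called for either growth factor in either culture type. The tested probe (ILMN_2693922) gave 10.88, 10.91 and 9.76 in co-cultures in -GFs, 10.47, 10.27 and 10.23 with FGF2 and 10.64, 10.65 and 10.00 with BMP4. In the mono-cultures it gave 12.73, 12.75 and 12.39 in -GFs, 12.74, 12.27 and 12.40 with FGF2 and 12.64, 12.42 and 12.82 with BMP4. The treated arrays lay inside or close to the range of their -GFs arrays. The log2 fold changes against -GFs were -0.19, -0.09, -0.15 and 0.01, each ± 0.262 (SE), and the confidence intervals ran from -0.75 to 0.56 over the 4 comparisons.

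The 4 EGFR probes that passed the filter did not move alike with FGF2 in the mono-cultures. Fitted over all probes that passed, ILMN_2693922 and ILMN_2614432 changed by -0.15 and -0.18, while ILMN_3052260 and ILMN_3128725 changed by 0.64 ± 0.255 (SE; adjusted p 0.121) and 0.58 ± 0.207 (SE; adjusted p 0.0759). ILMN_3052260 gave 10.67, 10.73 and 10.68 in -GFs and 11.56, 11.13 and 11.29 with FGF2. ILMN_3128725 gave 10.80, 10.82 and 10.85 in -GFs and 11.47, 11.35 and 11.39 with FGF2. At both of these probes every FGF2 array lay above every -GFs array, and neither change reached the fold threshold. In the co-cultures FGF2 differed from -GFs by -0.19 at ILMN_2693922, -0.47 at ILMN_3052260 and -0.29 at ILMN_3128725, none with an adjusted p under 0.1. ILMN_2614432 was detected on none of the FGF2 and 1 of the -GFs arrays there, so it gave no usable difference in the co-cultures. The test of the difference between culture types gave -1.11 ± 0.361 (SE; adjusted p 0.065) at ILMN_3052260, which was called, and -0.87 ± 0.293 (SE; adjusted p 0.0733) at ILMN_3128725, against -0.04 at ILMN_2693922. The positions of the probes on the transcripts of Egfr were not used here, and the difference between probes was not tested.

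**Figure D3:**
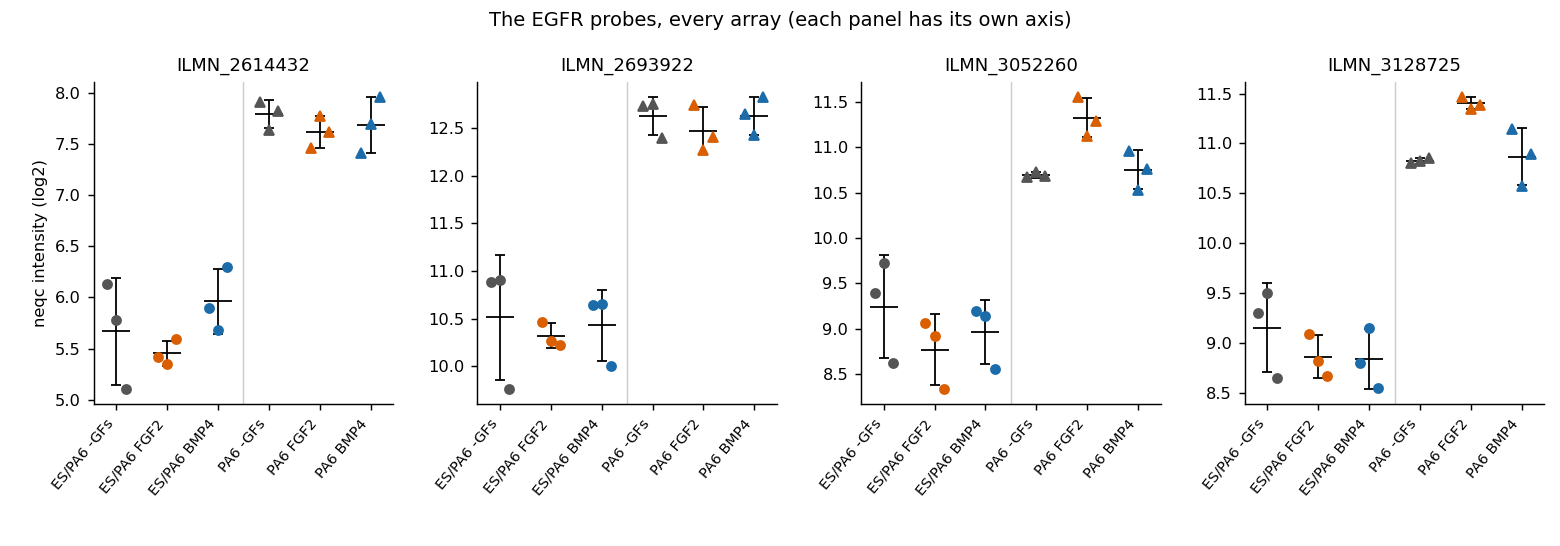
Log2 intensity after neqc normalization of the 4 EGFR probes that passed the filter, on every array, with 3 points per group, a bar for the mean and whiskers for the SD (each panel has its own axis, which does not start at 0). In the PA6 groups, all FGF2 arrays lie above all -GFs arrays at ILMN_3052260 and ILMN_3128725, while at ILMN_2693922 and ILMN_2614432 the groups overlap.

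ERBB2, the receptor without a known ligand, was not called for any treatment. Its probe (ILMN_2739424) gave 7.47, 8.40 and 8.32 in co-cultures in -GFs, 8.04, 8.17 and 8.86 with FGF2 and 8.01, 7.87 and 8.36 with BMP4, which overlap throughout. In the mono-cultures it gave 9.03, 9.07 and 9.01 in -GFs, 8.86, 8.41 and 8.89 with FGF2 and 9.16, 9.33 and 9.39 with BMP4. There the FGF2 arrays were all lower and the BMP4 arrays all higher than the -GFs arrays. The changes were -0.32 ± 0.242 (SE; adjusted p 0.473) and 0.26 ± 0.242 (SE; adjusted p 0.791), and FGF2 against BMP4 gave -0.57 ± 0.242 (SE; adjusted p 0.135).

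The culture types were compared in -GFs medium to see which of these transcripts differ between the co-culture and the stroma alone. Here 3 of the 5 genes were called, against 39% of all genes tested, so that many genes of any kind were called in this comparison. EGFR was 4.30-fold lower in the co-cultures, with 10.52 ± 0.659 against 12.62 ± 0.2 (SD, n = 3), a difference of -2.11 ± 0.262 on the log2 scale (SE; adjusted p 2.46e-06). The other 3 EGFR probes gave -2.12, -1.67 and -1.45, all called, although ILMN_2614432 was detected on only 1 of the 3 co-culture arrays. BTC was also lower in the co-cultures, with a log2 difference of -1.14 ± 0.290 (SE; adjusted p 0.00246). ERBB2 was 8.07 ± 0.515 against 9.04 ± 0.0292 (SD, n = 3). The difference of -0.97 ± 0.242 (SE; adjusted p 0.00206) lay just short of the fold threshold, which it passed without ES/PA6 -GFs replicate 2 (-1.14) or 3 (-1.10). HBEGF was the 1 gene of the 5 that was higher in the co-cultures, 7.81 ± 0.368 against 6.81 ± 0.314 (SD, n = 3), by 1.0 ± 0.256 on the log2 scale (SE; adjusted p 0.0025). NRG1 differed by -0.03 ± 0.235 (SE; adjusted p 0.92), with a confidence interval from -0.53 to 0.47.

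Like EGFR, BTC and ERBB2, and unlike HBEGF and NRG1, the stromal markers were lower in the co-cultures. Their median log2 fold change between co-cultures and mono-cultures was -1.39, with -1.71 for COL1A1 (type I collagen), -1.58 for PDGFRB (a receptor of fibroblast-like cells) and -0.72 for DCN (decorin), while the median over all genes was -0.11. Their part in the results for EGFR, BTC and ERBB2 was not tested. The call of BTC was lost without PA6 -GFs replicate 3, at -0.99, and under 4 changes of the normalization, at -0.95 to -0.57. The call of HBEGF was lost without ES/PA6 -GFs replicate 2 (0.95) or 3 (0.85) or PA6 -GFs replicate 1 (0.84), with array weights (0.99), without background correction (0.62) and with an offset of 50 (0.82). In both genes the direction held in all 18 alternatives. EGFR was called in all 18, at -2.33 to -1.73.

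**Figure D4:**
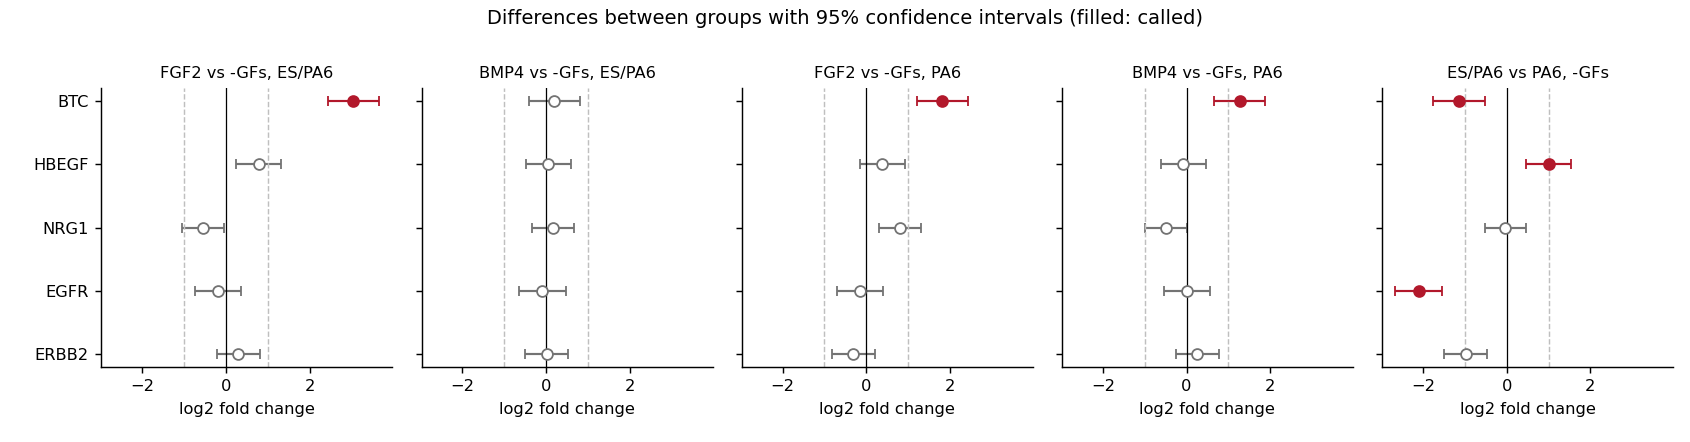
Log2 fold changes of the 5 tested genes (points) with 95% confidence intervals (bars) in the 4 comparisons with -GFs and between the culture types, with filled points for called genes and dashed lines at -1 and 1. BTC is filled in 4 panels. In the last panel the bars of EGFR, BTC and ERBB2 (unfilled) lie below 0 and that of HBEGF above.

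The other genes of the pathway were taken from 6 lists of 77 genes, of which 60 were tested. Of the remaining ligands and the remaining receptor, EGF, EPGN and NRG4 were tested and called in none of the 9 comparisons, while NRG3 and ERBB4 were detected on no array and NRG2 was not matched to the array. EPGN, the neighbour of Ereg, was detected on 5 arrays, all of them PA6 mono-cultures, and NRG4 on 8 arrays, all of them co-cultures.

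With FGF2 in the mono-cultures 15 of the 60 genes were called, 12 higher and 3 lower, or 25% against 5.27% of all genes. The lists were chosen with earlier results of these data known, so the shares here and below were no test of the pathway. The calls were densest among 17 transcripts known to rise after EGF receptor signalling, of which 13 were tested, 8 were called higher and 1 lower, with a median log2 fold change of 1.31 against -0.01 for all genes. These transcripts also respond to FGF receptors and to other inputs of the ERK cascade. PHLDA1 (2.56 ± 0.264, SE; adjusted p 5.95e-06) and DUSP6, an ERK phosphatase (2.39 ± 0.193, SE; adjusted p 5.61e-07), rose most. HAS2, a hyaluronan synthase (2.32), JUNB (2.22), PTX3 (1.65), DUSP4 (1.41), PLAUR, the urokinase receptor (1.31), and IER3 (1.22) rose as well. EGR1, an immediate early transcription factor, fell by 2.16 on the log2 scale (adjusted p 0.000443).

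Among the genes that release or restrain the ligands, 2 of 9 tested rose with FGF2 in the mono-cultures. They were ADAM9, a surface metalloprotease (1.24 ± 0.218, SE; adjusted p 0.000951), and TIMP1, an inhibitor of metalloproteases (2.20 ± 0.190, SE; adjusted p 1.16e-06). PTPN1, a phosphatase that acts on EGFR (1.27), was the 1 call among 10 tested receptor inhibitors and turnover genes, and SDC4, a heparan sulfate proteoglycan (1.27), the 1 call among 6 co-receptors. Of 19 tested adaptors and kinases, GAB1 (-1.06) and PIK3R1 (-1.01) fell. GAB1 was not called without PA6 FGF2 replicate 2 (-0.94), PIK3R1 not without that array (-0.96) or PA6 -GFs replicate 2 (-1.0), DUSP4 not with its probes averaged (0.77), and PLAUR not without background correction (0.85).

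In the co-cultures FGF2 gave 3 calls among the 60 genes, or 5% against 3.34% of all genes. TIMP1 rose by 1.59 ± 0.190 (SE; adjusted p 8.66e-05), STAT5A, a transcription factor, by 1.35 ± 0.232 (SE; adjusted p 0.00186) and HAS2 by 1.14 ± 0.364 (SE; adjusted p 0.0794). HAS2 lost its call in 10 of 19 alternatives, among them without ES/PA6 -GFs replicate 1 or 2 (1.10 and 1.01) or ES/PA6 FGF2 replicate 2 or 3 (1.14 and 0.79). STAT5A was not called with its probes averaged (0.78) or without background correction (0.94). Without ES/PA6 -GFs replicate 3, 5 of the genes were called. DUSP6 changed by 0.01 and PHLDA1 by 0.41 in the co-cultures. The test of the difference between the culture types called both, at -2.38 ± 0.273 (SE; adjusted p 4.9e-05) and -2.15 ± 0.374 (SE; adjusted p 0.00163). It called 6 of the 13 response transcripts, 5 with a negative and 1 with a positive difference, where 7.39% of all genes were called. DUSP6 was already 3.75 higher on the log2 scale in co-cultures than in mono-cultures in -GFs medium.

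**Figure D5:**
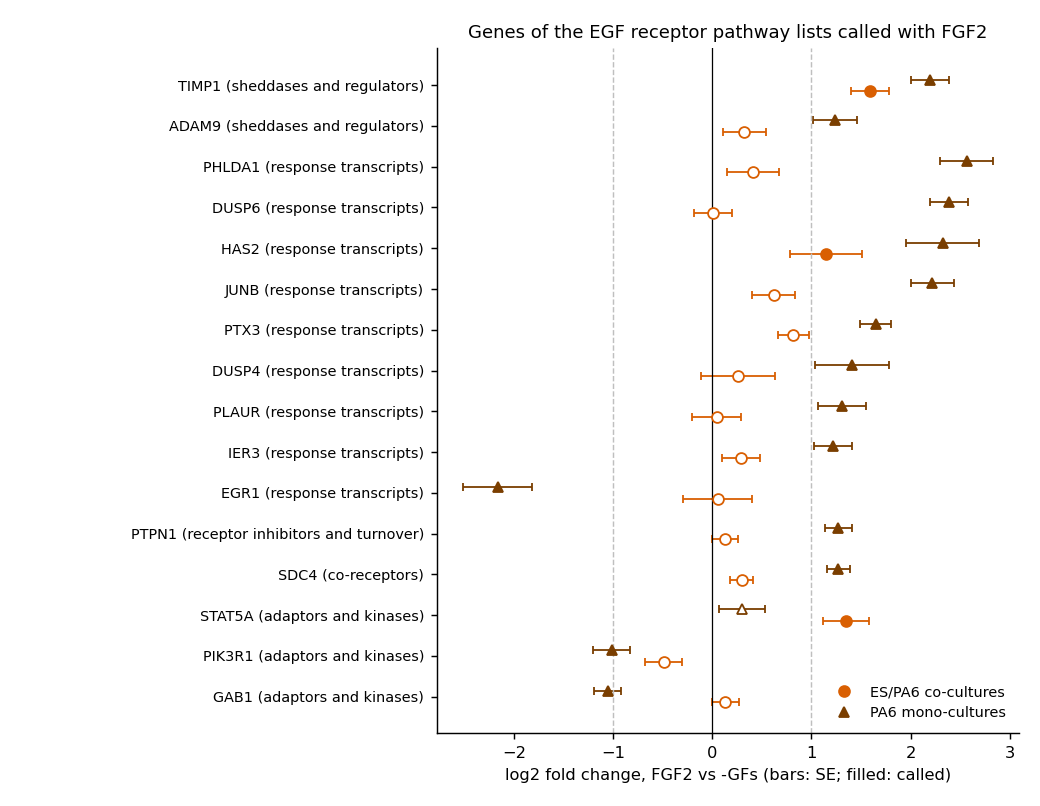
Log2 fold change with FGF2 against -GFs (points; bars show the SE) of the 16 genes of the pathway lists called in either culture type, with circles for ES/PA6 co-cultures, triangles for PA6 mono-cultures and filled points for called genes. TIMP1 and HAS2 are filled in both, STAT5A in the co-cultures only, and the other 13 in the mono-cultures only.

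BMP4 called none of the 60 genes in the co-cultures by limma, where 0.76% of all genes were called. An unadjusted p under 0.05 was found for 9 of the 60, and the share of all genes at that level is not given here. In the mono-cultures 5 were called, 4 higher and 1 lower, or 8.33% against 1.41% of all genes. ADAM12, a metalloprotease that can release HBEGF, rose by 1.60 ± 0.301 (SE; adjusted p 0.00887) and PHLDA1 by 1.32 ± 0.264 (SE; adjusted p 0.0126). ERRFI1, a feedback inhibitor of EGFR, rose by 1.08 ± 0.146 (SE; adjusted p 0.000739), and PIK3R3 by 1.01 ± 0.147 (adjusted p 0.00139). CD9, a tetraspanin that associates with the HBEGF precursor, fell by 1.35 on the log2 scale (adjusted p 0.0271). ERRFI1 was not called without PA6 -GFs replicate 1 (0.99), CD9 not without that array (-1.12) or PA6 BMP4 replicate 2 (-1.06), and PIK3R3 not in 8 of 19 alternatives, among them without PA6 -GFs replicate 3 (0.88) or PA6 BMP4 replicate 2 or 3 (0.96 and 1.0). Without PA6 -GFs replicate 1 or PA6 BMP4 replicate 2, 3 of the genes were called.

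Markers of other cells moved with the treatments too. Calls made up 3.34% of all genes with FGF2 and 0.76% with BMP4 in the co-cultures, and 5.27% and 1.41% in the mono-cultures. Of 6 tested adipocyte markers in the mono-cultures, 4 were called lower with FGF2 and 2 higher with BMP4. The log2 of their summed intensities lay at 13.33 to 13.71 in PA6 -GFs, 10.60 to 10.84 with FGF2 and 14.70 to 15.85 with BMP4. BTC was higher with both growth factors in these cultures, while the adipocyte sum was lower with FGF2 and higher with BMP4. In the co-cultures 1 of the 6 was called lower with FGF2 (ADIPOQ, -2.37) and 2 higher with BMP4 (ADIPOQ, 3.45, and CFD, 3.19). There the adipocyte sum lay at 11.21 to 12.20 in -GFs, 10.74 to 10.95 with FGF2, where BTC was high, and 12.65 to 14.80 with BMP4, without overlap. LPL was the brightest of the 6 in these -GFs and FGF2 co-cultures, at means of 10.41 and 10.21, and was not called. In the co-cultures also 3 of 4 surface ectoderm markers were called higher with BMP4. The stromal sum lay between 17.61 and 17.96 over the 9 mono-culture arrays. Of the 13 stromal markers, THY1 (-1.11) and POSTN (-1.25) were called lower with FGF2 and COL3A1 (-1.58) with BMP4 in the mono-cultures, and THY1 (-1.08) with FGF2 and COL3A1 (-1.16) with BMP4 in the co-cultures. Of 10 pluripotent markers in the co-cultures, NANOG (1.25) and ZFP42 (1.19) were called higher and LIN28 (-1.63) lower with FGF2. Of 5 tested endothelial markers, PECAM1 (1.17) was called higher with BMP4 in the co-cultures and TEK (-1.71) lower with FGF2 in the mono-cultures. Of 3 tested macrophage markers, LYZ2 (-1.06) was called lower with FGF2 in the mono-cultures. None of 3 tested neural markers was called with either growth factor in either culture type. SOX1, PAX6 and TUBB3 were detected on no array. The part of any of these cells in the results above was not tested.

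The genes whose profile was most like that of each member were taken by Pearson correlation over all 18 arrays. For BTC these were ANGPTL2 (0.941), FUT8 (0.916) and 2610024B07RIK (0.853), for HBEGF CDK5RAP3 (0.936), SLC7A4 (0.93) and AA467197 (0.929), and for ERBB2 ZFP260 (0.946), FLII (0.935) and AP1G2 (0.93). For EGFR they were 4933427D14RIK (0.991), YIPF4 (0.99) and ADAMTS2 (0.99). For NRG1 no gene reached 0.8, and the highest were IL1RL1L (0.798), A630097K09RIK (0.792) and PDLIM7 (0.790). These are descriptions over arrays that share culture type, treatment and replicate set.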

How the data were processed

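GenomeStudio 2011.01 is named in the submitters' processing notes. The deposited table holds 1 non-normalized intensity on a linear scale and 1 detection p-value per probe and array (deposited intensity 55.5 to 72879), as the authors' bead summaries. 5 stray lines without a probe were skipped. Here the intensities were normalized with neqc (offset 16) in limma 3.58.1 (R 4.3.3), which infers the background from the detection p-values. The 22987 probes detected (p under 0.05) on 3 arrays or more were kept, and the probe with the highest mean was taken for each of 16446 genes. limma fitted 6 group means on 18 arrays and Benjamini-Hochberg adjustment ran over all genes. The labels say that each biological replicate held 1 well of each culture, so replicate numbers mark sets of wells. Same-numbered arrays deviated together in the co-cultures (correlations 0.325 to 0.521). They did so less in the mono-cultures (0.0628 to 0.164) and across the culture types (-0.0248 to 0.175). The fit was tested on simulated data with independent arrays, which cannot show how deviations shared by same-numbered arrays affect it. Members, pathway lists, markers and tests were chosen with earlier results of these data known. All 9 members are named, with pathway genes called in any comparison with -GFs and, for each tested member, the 3 genes most correlated with it. PLIN1, MAP2 and other markers were found under older names where needed, and 13295 of the 16446 gene names matched GRCm38.p6. The number of arrays limits the precision. Slide and scan date are not given in the sources used here.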

Additional observations from a re-analysis of the deposited data

Results flagged for a closer look

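A test of the difference itself called a different response to FGF2 in the culture types for 2 of the 5 tested genes. In that test 7.39% of all genes were called. For NRG1 the difference was -1.36 on the log2 scale (adjusted p 0.016), with changes of -0.55 in ES/PA6 co-cultures and 0.81 in PA6 mono-cultures. For BTC it was 1.23 (adjusted p 0.0708), with changes of 3.04 and 1.82, and 14 of 24 alternatives did not call it. BTC averaged 8.81 and 8.71 with FGF2 in co-cultures and mono-cultures, and 5.76 and 6.90 in -GFs medium. Of the 3 co-culture -GFs arrays, 1 detected it.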

How the results depend on the processing

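The number of the 5 tested genes called was unchanged under the alternatives run for FGF2 against -GFs and FGF2 against BMP4 in both culture types, for BMP4 in the co-cultures and for the BMP4 difference between culture types. For BMP4 in the mono-cultures it went from 1 to 0 with quantile normalization or the cubic spline, both without background correction, and was 0 to 1 when 1 array was left out. For ES/PA6 against PA6 it went from 3 to 1 with these settings and with an offset of 50. The call of BTC was also lost there with median scaling or without PA6 -GFs replicate 3. That of HBEGF was lost with array weights or without ES/PA6 -GFs replicate 2 or 3 or PA6 -GFs replicate 1. ERBB2 was called there without ES/PA6 -GFs replicate 2 or 3. For the FGF2 difference between culture types the number went from 2 to 1 without background correction or with an offset of 50. It did so too with median scaling, no filter on dim probes or an adjusted p under 0.05, and was 1 to 2 when 1 array was left out. The genes lost were BTC, and HBEGF in the comparison of culture types. Without ES/PA6 -GFs replicate 2 or 3, the BTC difference was 1.11 and 1.10. Without ES/PA6 FGF2 replicate 1 or 2 it was 0.91 and 1.24. Without PA6 -GFs replicate 2 or 3 it was 1.09 and 1.08, and without PA6 FGF2 replicate 1 or 3, 1.24 and 1.08. Array weights took HBEGF to 0.99. With a replicate block fitted in both culture types, no call of the 5 genes changed, and the adjusted p of the BTC difference for FGF2 was 0.0289 (0.0193 to 0.169 over its alternatives). Over all gene and comparison pairs, 827 values kept their side of the thresholds, 29 fell below them, 2 rose above them, none reversed and 42 uncalled values changed sign. Of 23 calls of pathway genes, 14 were lost under no alternative. BTC was detected on 1 of 3 -GFs and 2 of 3 BMP4 co-culture arrays, which limits its precision there.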
